A study of Mus musculus with 3 samples.

Results

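The miRNAs described here are those of the mouse families miR-297, miR-466, miR-467 and miR-669. A probe was included when its name holds one of these 4 numbers followed by a letter or a hyphen, whatever its brightness. The rule found 71 of the 1265 miRNA probes of the array, with 4 probes for miR-297, 27 for miR-466, 13 for miR-467 and 27 for miR-669. A probe with names of more than 1 family was counted with miR-466. Of the 71 probes, 7 name several miRNAs whose sequences the array cannot separate.

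Total RNA of 3 cultures was labelled with Cy5 and each was hybridized to 1 single-colour 3D-Gene miRNA array. W4-08-PR cells (labelled W408) are a stable subline of C2C12 that carries V5-tagged Wnt4 cDNA under the CMV promoter with blasticidin selection, and they had grown in DMEM with 10% FBS. C2C12-DF cells are parental C2C12 myoblasts, a line from a C3H mouse, in DMEM with 2% horse serum, the medium in which they form myotubes, for a time not given in the sources used here. C2C12-PR cells are parental C2C12 cells in DMEM with 10% FBS and serve as the control of both. Every condition has 1 array, so no test between conditions was possible, and W4-08-PR stands for 1 subline.

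These families are known from the mouse, where most of their genes lie together in an intron of Sfmbt2, an imprinted Polycomb-group gene expressed from the paternal allele in the early embryo and the placenta. The cluster expanded in rodents from simple repeats, so that its hairpins are rich in UG on one arm and in CA on the other. Either arm of a hairpin, 5p or 3p, can be loaded into Argonaute and pair with mRNAs through its seed, bases 2 to 8. In the mouse, miR-669a is known to hold back MyoD in cardiac progenitors, miR-466l is known to raise IL-10 in macrophages and miR-467b is known to target lipoprotein lipase.

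In the RefSeq annotation of GRCm38.p6, 72 miRNA genes lie within Sfmbt2 on chromosome 2, and all 72 belong to the 4 families. Of the 80 miRNA names on the 71 probes, 78 matched a gene. The miRNAs of 56 probes are encoded only within Sfmbt2, those of 9 probes only elsewhere and those of 5 probes at both, and miR-466a-5p was not matched. Mature RefSeq sequences matched 1024 of the 1265 probes by name and 8 of the 71, all of them encoded outside Sfmbt2. They are shown because they hold the repeats typical of these families and because miR-467g and miR-669n are among the detected probes. Capitals mark the seed.
miR-467g: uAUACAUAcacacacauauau
miR-467f: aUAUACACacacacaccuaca
miR-466i-3p: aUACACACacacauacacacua
miR-466q: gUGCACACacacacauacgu
miR-669n: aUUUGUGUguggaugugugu
miR-467h: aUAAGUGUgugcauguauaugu
miR-466k: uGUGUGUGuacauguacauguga
miR-466j: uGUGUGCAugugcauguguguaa

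The first 4 of these sequences are CA-rich and the other 4 are UG-rich. miR-467g lies at chr5:34732872-34732892 on the minus strand, inside the span of Grk4, and miR-669n at chr3:115979905-115979924 on the plus strand, inside that of Slc30a7 (GRCm38.p6). The 8 seeds all differ, and only that of miR-467h recurs in the RefSeq table of mature sequences used here, in miR-668-5p. At least 4 tandem copies of the dinucleotide UG or CA, searched in each mature RNA as UGUGUGUG, GUGUGUGU, CACACACA or ACACACAC, which overlap one another and of which the last pair are the reverse complements of the first pair, occur in 6 of the 8. The same letters occur in 7 of 1016 other miRNA probes with a RefSeq sequence, or 0.689%.

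The brightness of each spot was read in arbitrary linear units, and signal here means brightness above the background of that array as subtracted by the authors (99.9 units on W4-08-PR, 101 on C2C12-DF and 95.9 on C2C12-PR). The lowest signal the authors counted as detected was 9.77 units on W4-08-PR, 10.8 on C2C12-DF and 11.9 on C2C12-PR. The SD of the 1664 blank spots was 6.43, 6.83 and 7.59 units on the same arrays. Each miRNA has 1 spot per array, so the error of a dim probe was taken mainly from the spread of the blank spots. Of 15 probes for muscle miRNAs, 6 were detected on W4-08-PR, 3 on C2C12-DF and 3 on C2C12-PR. Of all miRNA probes, 37.7%, 29.2% and 26.8% were detected on the same arrays, so the muscle list did not stand out by count. Its brightest probe was miR-206-3p on every array, at 1917, 219 and 54.4 units. On W4-08-PR, 2 of 7 blood, 0 of 6 neural, 2 of 17 liver or epithelial and 6 of 18 stem cell probes were detected, with at most 30.5 units for any of them. In that order the counts were 1, 1, 1 and 4 on C2C12-DF, with at most 22.6 units. On C2C12-PR they were 2, 0, 2 and 2, with at most 48.3 units, for miR-144-3p of the blood list.

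Few miRNAs of the 4 families were detected. On the W4-08-PR array 8 of the 71 probes were detected (11.3%), where 37.7% of all miRNA probes were, and 6.85% of the blank spots reached the same limit. On C2C12-DF 2 of the 71 were detected (2.82%), against 29.2% of all miRNA probes and 6.01% of the blank spots. On C2C12-PR 3 were detected (4.23%), against 26.8% of all miRNA probes and 7.15% of the blank spots. At the rate of the blank spots, 4.86, 4.27 and 5.08 of the 71 would pass on the 3 arrays in that order. The count was thus above that of the blank rate on W4-08-PR and below it on C2C12-DF and C2C12-PR.

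The No Probe and the Negative Control spots, which carry no miRNA probe, passed more often than the blank spots did. The No Probe spots passed at 12.4% on W4-08-PR (12 of 97), 7.22% on C2C12-DF and 9.28% on C2C12-PR, and the 24 Negative Control spots at 25%, 16.7% and 12.5%. The share of the 4 families on W4-08-PR lay between that of the BLANK and that of the No Probe spots, and on C2C12-DF and C2C12-PR it lay below all 3 kinds of empty or control spot. Of the 1194 other miRNA probes, 39.3%, 30.8% and 28.1% passed.

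**Figure D1:**
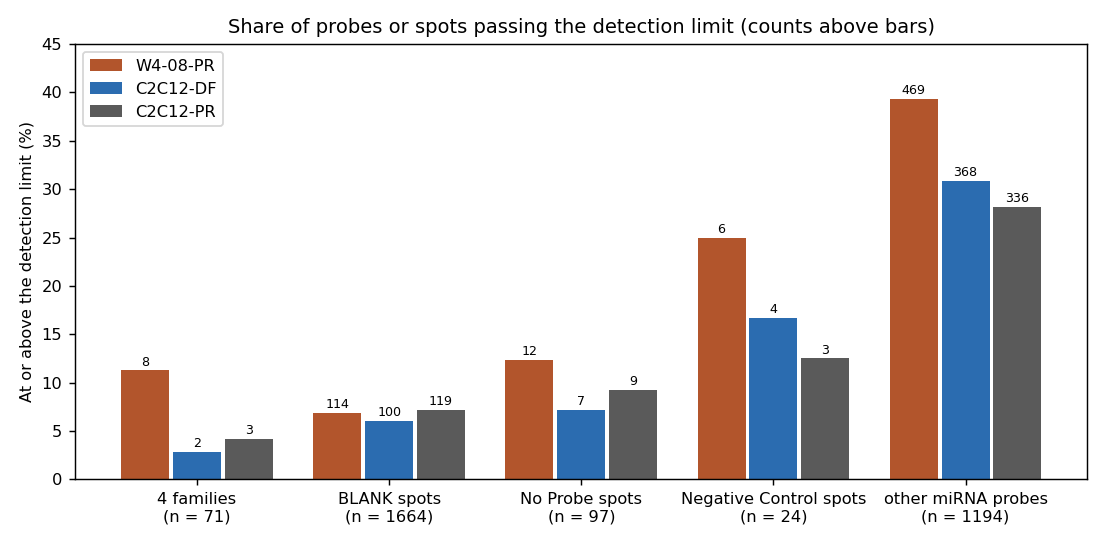
Share of probes or spots at or above the detection limit, in percent, on the W4-08-PR, C2C12-DF and C2C12-PR arrays; the number above each bar is the count passing. The 4 families reach 11.3%, 2.82% and 4.23%, far below the other miRNA probes. On W4-08-PR their share lies between that of the BLANK and that of the No Probe spots. On C2C12-DF and C2C12-PR it lies below those of the BLANK, No Probe and Negative Control spots.

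The bulk of the 71 signals lay within the range of the blank spots. Their median was 2.51 units on W4-08-PR, 0.63 on C2C12-DF and -0.54 on C2C12-PR, where the blank spots had medians of -0.15, 0.12 and -0.29 units and the No Probe spots of 3.13, 1.55 and 2.5 units. Below background lay 22 of the 71 on W4-08-PR (31.0%), 30 on C2C12-DF (42.3%) and 37 on C2C12-PR (52.1%), against 51.1%, 49.1% and 52.0% of the blank spots and 20.9%, 33.1% and 36.8% of all miRNA probes. On W4-08-PR the share of the 4 families thus lay between that of the blank spots and that of all probes, and on C2C12-PR it lay at that of the blank spots. The lowest read -11.5, -11.9 and -12.1 units and the highest 16.5, 15.9 and 65.5 units on the 3 arrays. No member was brighter than the brightest blank spot on W4-08-PR (46.3 units) or C2C12-DF (28.1 units), and 1 was on C2C12-PR (37.4 units). Of all 1265 probes, 188, 222 and 180 exceeded that mark on the 3 arrays.

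**Figure D2:**
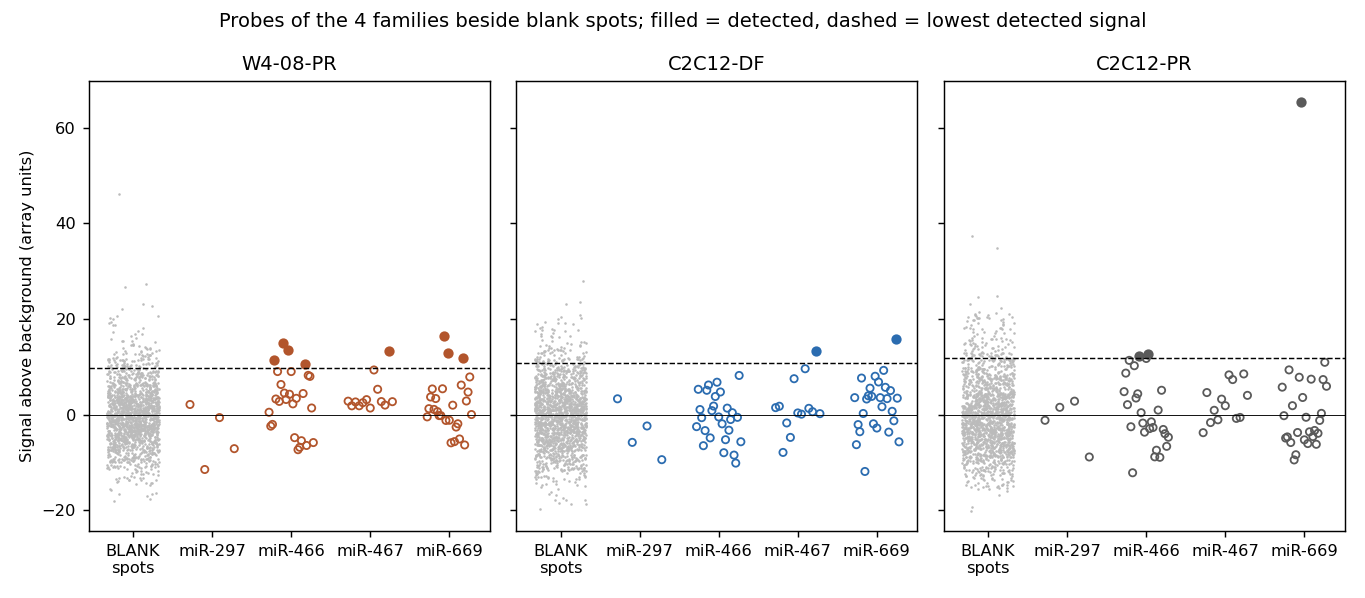
Signal above background in array units for the probes of each family (circles) beside the 1664 BLANK spots (grey), 1 panel per array; filled circles are detected probes and the dashed line is the lowest detected signal. The families overlap the blank spots on every array, and miR-669e-5p on C2C12-PR, at 65.5 units, stands alone above them.

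Over the 3 arrays, 12 of the 71 probes were detected at least once, 1 of them on 2 arrays and none on all 3. If passing were independent between arrays and happened at the rates of the blank spots, 13.3 probes would pass at least once and 0.904 at least on 2 arrays. The 59 remaining probes were detected nowhere.

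miR-669e-5p was the 1 member with a signal well clear of the blank spots. It gave -1.20 units on W4-08-PR and -1.89 on C2C12-DF, against 65.5 on C2C12-PR, where it lay 8.63 SD of the blank spots above background. None of the 1664 blank spots of that array was as bright. Its log2 ratio was -1.13 ± 0.23 in W4-08-PR relative to C2C12-PR and -1.10 ± 0.25 in C2C12-DF relative to C2C12-PR, where ± is 1 technical SD carried forward from blank and spike control spots and holds no biological variation. Ratios are those of background-corrected, quantile-normalized values, in which an offset of 50 units draws dim probes toward 0. The probe was not detected on W4-08-PR or C2C12-DF, so its readings there set only an upper limit to the level. Set against the lowest detected value of those arrays, miR-669e-5p was at least 1.88-fold lower in W4-08-PR and at least 1.78-fold lower in C2C12-DF. These bounds are taken on values that hold the offset of 50 units, which lowers them. Before normalization, its 65.5 units on C2C12-PR stood against lowest detected signals of 9.77 units on W4-08-PR and 10.8 on C2C12-DF. Both ratios share the C2C12-PR spot, so they are not separate readings of the miRNA. Only 1 other probe of the array, miR-144-3p of red blood cells at 48.3 units, exceeded every blank spot on C2C12-PR without being detected on W4-08-PR or C2C12-DF. The array has no second spot of this probe to set beside the value. The other arm of the same hairpin, miR-669e-3p, read 7.84 units on C2C12-PR, below the limit.

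miR-467g was the 1 member detected on 2 arrays. It gave 13.3 units on W4-08-PR and 13.3 on C2C12-DF, against 8.53 on C2C12-PR, below the limit of that array. These are levels that 2.40%, 3.19% and 13.8% of the blank spots of the same array reached. Its log2 ratio was 0.021 ± 0.24 in W4-08-PR over C2C12-PR, 0.089 ± 0.26 in C2C12-DF over C2C12-PR and -0.068 ± 0.24 in W4-08-PR over C2C12-DF, each smaller than 1 technical SD at an offset that draws dim probes together. Under plain background subtraction the ratio in C2C12-DF over C2C12-PR was 0.44, with the undetected C2C12-PR reading raised to the lowest detected signal. In the scaled values of the authors the ratio in W4-08-PR over C2C12-DF was 0.498, below the median of 0.705 of all probes with both values. These ratios hold no offset, and the technical SD was taken on values with the offset, so it cannot be set against them. The order of the 3 levels was not settled.

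miR-669n, encoded outside the cluster and UG-rich, was detected on C2C12-DF alone. It gave 15.9 units on C2C12-DF, a level reached by 1.62% of the blank spots there, 4.73 units on W4-08-PR and 7.35 on C2C12-PR. Its log2 ratio was 0.16 ± 0.26 in C2C12-DF over C2C12-PR and -0.27 ± 0.25 in W4-08-PR over C2C12-DF. With miR-467g it made up both detections of the C2C12-DF array, and no probe encoded within Sfmbt2 was detected there.

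The W4-08-PR array held most detections. miR-669e-3p was the brightest at 16.5 units, rank 334 of 1265, followed by miR-466e-5p at 14.9, miR-466f-5p at 13.5, miR-467g, miR-669f-3p at 12.8, miR-669l-3p at 11.9, the joint probe of miR-466m-5p and miR-669m-5p at 11.5 and miR-466m-3p at 10.6 units. All 8 lay within 6.74 units of the limit, about the SD of 1 blank spot. Their log2 ratios over C2C12-PR ran from -0.064 ± 0.24 for the joint probe to 0.37 ± 0.27 for miR-466m-3p. The joint probe read 11.5 units on W4-08-PR and -0.62 on C2C12-DF, against 11.4 on C2C12-PR, where it was not detected because the limit of that array is higher. For this probe the detection call differed between W4-08-PR and C2C12-PR while the readings did not. The W4-08-PR array also had the lowest limit and the most detected miRNA probes, 477, against 370 on C2C12-DF and 339 on C2C12-PR. At a common height of 11.9 units, 6 of the 8 remained on W4-08-PR, beside 2 members on C2C12-DF and 3 on C2C12-PR. The part of the larger number of detected probes in these 6 was not tested.

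On C2C12-PR miR-466h-5p and the probe named miR-466f were detected besides miR-669e-5p. miR-466h-5p, known from hamster cells as a miRNA that promotes apoptosis, read 2.27 units on W4-08-PR and 4.76 on C2C12-DF, against 12.8 on C2C12-PR. miR-466f read 4.53 and 0.86 units, against 12.3 on C2C12-PR. These signals lay 0.88 and 0.37 units above the limit, and their log2 ratios over C2C12-PR, ran from -0.29 to -0.18 with technical SDs of 0.24 to 0.27.

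On each array some members lay just short of the detection limit. On W4-08-PR the nearest members below it were miR-467d-5p at 9.36, miR-466c-5p at 9.03 and miR-466h-3p at 9.02 units. On C2C12-DF they were miR-467e-3p at 9.62, miR-669i at 9.27 and miR-466p-5p at 8.21 units. On C2C12-PR they were miR-466h-3p at 11.8, the joint probe of miR-466m-5p and miR-669m-5p at 11.4 and miR-669o-5p at 10.96 units. The nearest above it were miR-466m-3p, the joint probe and miR-669l-3p on W4-08-PR, miR-467g and miR-669n on C2C12-DF and miR-466f and miR-466h-5p on C2C12-PR.

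By family, miR-466 had 4 of 27 probes detected on W4-08-PR, 0 on C2C12-DF and 2 on C2C12-PR. miR-669 had 3 of 27 on W4-08-PR, 1 on C2C12-DF and 1 on C2C12-PR. miR-467 had 1 of 13 on W4-08-PR, 1 on C2C12-DF and 0 on C2C12-PR, and none of the 4 miR-297 probes was detected on any array, with signals between -11.5 and 3.33 units. Among the miRNAs with a known role, miR-669a was near background at every probe. Its 5p probe, shared with miR-669p-5p, read 1.27 units on W4-08-PR and -6.27 on C2C12-DF, against -0.20 on C2C12-PR. Its 3p probe, shared with miR-669o-3p, read -0.45 and 3.57 units, against 5.76 on C2C12-PR. A further 3p probe, miR-669a-3-3p, read 3.71 and -2.07 units, against -4.88 on C2C12-PR. For miR-466l, the 5p probe read 4.43 and -1.0 units, against 0.97 on C2C12-PR, and the 3p probe -5.44 and -3.24 units, against -7.43 on C2C12-PR. For miR-467b, the 5p probe read 1.87 and -1.72 units, against 0.92 on C2C12-PR, and the 3p probe 2.67 and -7.89 units, against -1.64 on C2C12-PR. None of these was detected, so a level of these miRNAs below the limit could not be measured here.

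By arm, of 30 probes for a 5p arm, 3 were detected on W4-08-PR, 0 on C2C12-DF and 2 on C2C12-PR, and of 29 for a 3p arm 4, 0 and 0. Of the 12 probes with no arm in the name, 1, 2 and 1 were detected. For 33 miRNAs both arms have a probe, some of which are shared between miRNAs, and different probes are not compared in level. Both arms were detected once, for miR-466m on W4-08-PR (11.5 units for 5p and 10.6 for 3p), where the 5p probe also reads miR-669m-5p, whose own 3p arm read 2.87 units. For miR-669e the detected arm changed, with 5p at -1.20 and 3p at 16.5 units on W4-08-PR, against 65.5 and 7.84 units on C2C12-PR. The log2 ratio of its 3p probe in W4-08-PR over C2C12-PR was only 0.084 ± 0.24. Of the blank spots, 1.14% on W4-08-PR and 15.9% on C2C12-PR reached the 3p readings. A change of arm was not tested. miR-669f and miR-669l were detected by the 3p arm alone on W4-08-PR, with 5p arms at -1.16 and -6.33 units, and miR-466e and miR-466f by the 5p arm alone, with 3p arms at 0.51 and 3.18 units. The 3p probe of miR-466e also reads miR-466a-3p. For miR-466h on C2C12-PR the arms read 12.8 (5p) and 11.8 (3p) units, on either side of the limit.

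Between conditions, 1 of the 71 probes, miR-669e-5p, was called, on a fitted ratio. Its bounds of at least 1.88-fold and 1.78-fold fall short of 2-fold on values that hold the added offset, which lowers them. Before normalization, its 65.5 units on C2C12-PR stood against lowest detected signals of 9.77 units on W4-08-PR and 10.8 on C2C12-DF. To be called, a ratio had to reach 1 on the log2 scale in either direction, and the array with the brighter value had to have the probe detected. In W4-08-PR relative to C2C12-PR no member was called higher and 1, miR-669e-5p, was called lower, where 0.237% of all miRNA probes were called higher and 0.711% lower. In C2C12-DF relative to C2C12-PR again none was called higher and miR-669e-5p was called lower, against 0.237% and 1.26% of all probes. In W4-08-PR relative to C2C12-DF no member was called, and 0.474% of all probes were called in each direction. The median log2 ratio of all 71 probes, detected or not, was -0.014 in W4-08-PR over C2C12-PR, -0.0010 in C2C12-DF over C2C12-PR and -0.022 in W4-08-PR over C2C12-DF, where the 1265 probes had medians of 0.00, 0.013 and -0.0058. A ratio beyond 2 technical SD was found for 1 (1.41%), 1 (1.41%) and 0 of the 71, against 5.61%, 5.45% and 6.17% of all 1265 probes. No member was detected on both arrays of either comparison with C2C12-PR, so no level can be compared there as such, and miR-467g alone can be in W4-08-PR over C2C12-DF.

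**Figure D3:**
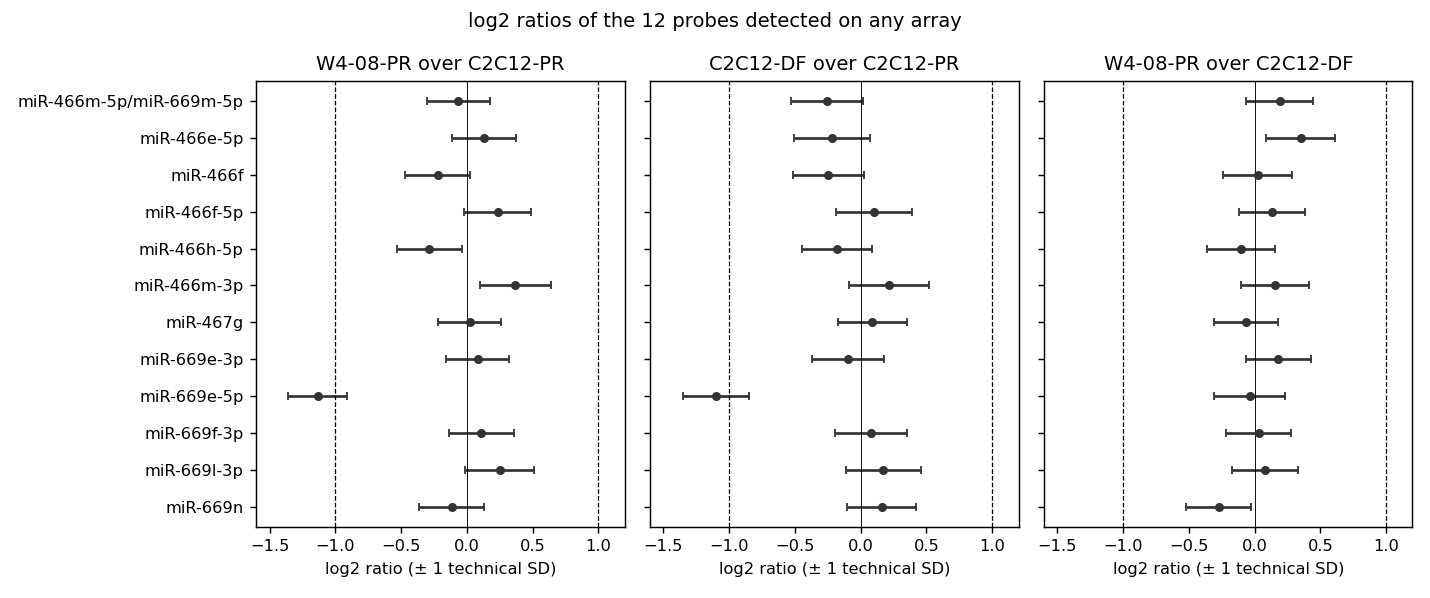
log2 ratios of the 12 probes detected on at least 1 array, with bars of 1 technical SD, for W4-08-PR over C2C12-PR, C2C12-DF over C2C12-PR and W4-08-PR over C2C12-DF; dashed lines mark a 2-fold difference. Only miR-669e-5p passes the line, at -1.13 and -1.10, in both comparisons with C2C12-PR.

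The signals of the 71 probes on 1 array had little relation to those on another. Pearson correlations across all 71 were 0.092 for W4-08-PR and C2C12-PR, 0.13 for C2C12-DF and C2C12-PR and 0.23 for W4-08-PR and C2C12-DF (Spearman 0.15, 0.22 and 0.17). Across the 59 detected nowhere the Pearson values were 0.17, 0.22 and 0.11, and across 653 other miRNA probes detected nowhere they were 0.17, 0.21 and 0.12. The probes share arrays and, in part, sequence, so these are descriptions only.

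Other miRNAs with a UG or CA repeat were also dim. Of the 7 such probes outside the 4 families, 2 were detected on W4-08-PR (28.6%), 1 on C2C12-DF (14.3%) and 0 on C2C12-PR. These were miR-672-5p with 16.1 units on W4-08-PR, and miR-3097-5p with 13.0 units on W4-08-PR and 11.4 on C2C12-DF. Among 102 probes of the imprinted Dlk1-Dio3 region, a miRNA cluster active in muscle and brain, 20.6% were detected on W4-08-PR, 16.7% on C2C12-DF and 10.8% on C2C12-PR, with signals of up to 389, 352 and 384 units. The highest signal in the 4 families was 16.5, 15.9 and 65.5 units on the same arrays.

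Place in the genome was set beside detection last. Of the 56 probes whose miRNAs are encoded only within Sfmbt2, 6 were detected on W4-08-PR, 0 on C2C12-DF and 2 on C2C12-PR. Of the 9 encoded only elsewhere, 1, 2 and 0 were detected, and of the 5 encoded at both places, 1, 0 and 1. Both detections of the last group were of miR-466f, by its 5p probe on W4-08-PR and by the probe without an arm on C2C12-PR.

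**Figure D4:**
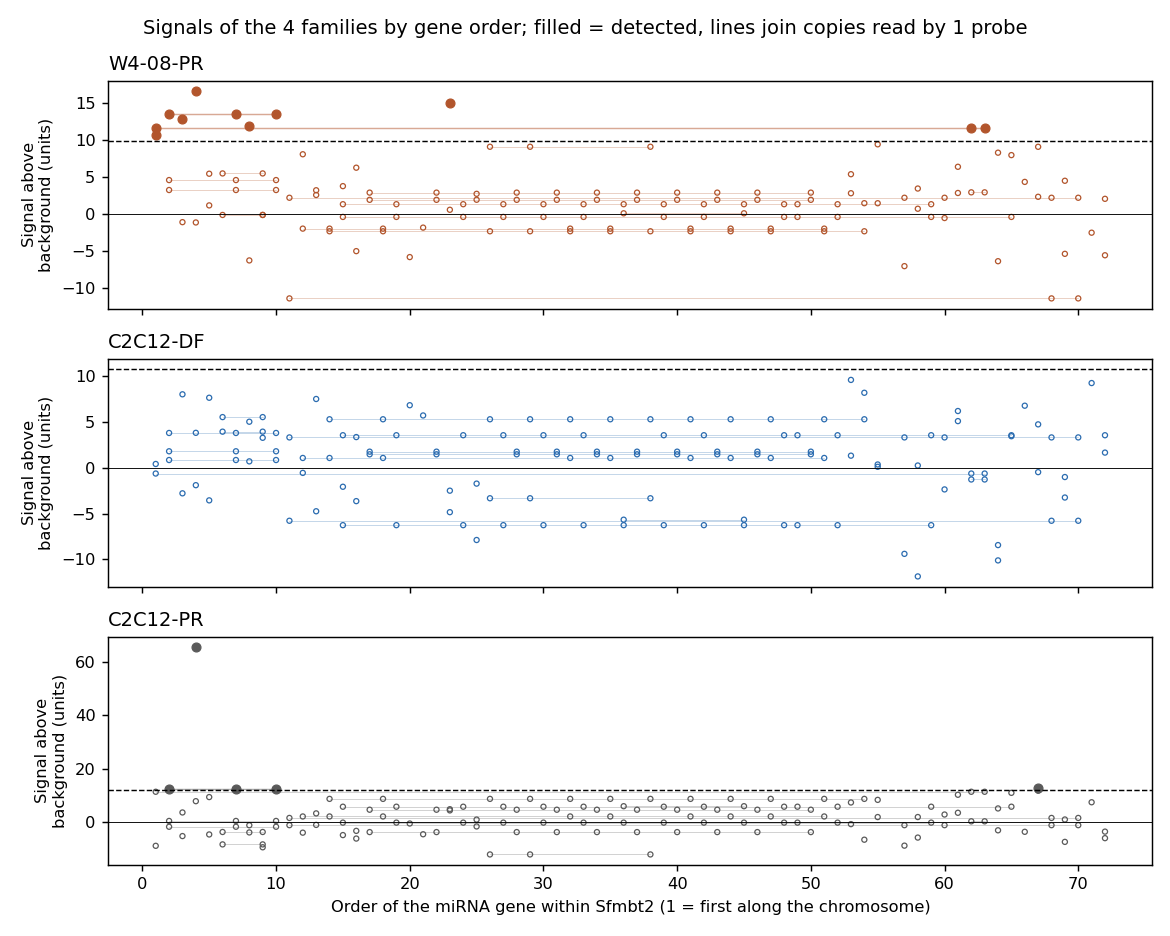
Signal above background in array units by the order of the miRNA gene within Sfmbt2, 1 panel per array with its own vertical scale; circles joined by a line are gene copies read by 1 probe, filled circles are detected and the dashed line is the lowest detected signal. On C2C12-DF no probe of a gene within Sfmbt2 reaches the line.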

How the data were processed

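The authors labelled total RNA with Cy5 and hybridized it to 1 Toray 3D-Gene array per condition. The sample descriptions name the miRNeasy kit for the extraction, and the paper names Isogen. They deposited the intensity of each of 3200 spots on a linear scale, before and after subtraction of 1 background value per array, and a scaled value. The scanner settings and the scaling method are not given in the sources used here. A probe counts as detected where the deposited background-subtracted intensity is given. The deposited series table held the same scaled values (largest difference 4e-06). Groups were taken from the sample titles.

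Normexp background correction of the spot intensities (limma 3.58.1, R 4.3.3) used an offset of 50 and, as background, the blank mean after trimming 5% at each end. The fit took all spots. Quantile normalization then covered the 1265 miRNA probes, before log2 conversion. Other steps used numpy 2.4.6, pandas 2.3.3, scipy 1.17.1 and matplotlib 3.10.9 under Python 3.11.15. No probe was removed. The technical SD combines the SD of blank spots, passed through the correction, with that of the 16 spike control spots. The number of arrays limits the precision. The calling of ratios was tested on simulated arrays, where the recovery of true changes was scored only for probes far brighter than any of the 4 families. A bound sets the detected value against the higher of the lowest detected value and the probe's own value on the other array. The rule for named miRNAs took all members detected on any array, the 3 nearest the limit on each side, arm pairs with a detected arm, and those with a known role, which were added after their values were seen. The members and lists were chosen with earlier results of these data known. The marker list for endothelium (miR-126a) matched no probe name. Alternatives were other detection limits, scalings, background corrections and size limits, and the authors' scaled values.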

Additional observations from a re-analysis of the deposited data

How the results depend on the processing

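At a detection limit of 3 SD of the trimmed blank spots, 2 members were detected on W4-08-PR (miR-669e-3p and miR-466e-5p), 0 on C2C12-DF and 1 on C2C12-PR (miR-669e-5p), where the rates of the blank spots give 1.15, 1.15 and 1.71. At the 95th percentile of the blank spots 1 was left on C2C12-PR, miR-669e-5p, with 7 on W4-08-PR and 2 on C2C12-DF, where the blank rate gives 3.58 on each array. At a common height of 11.9 units the counts were 6, 2 and 3, where the blank rates give 2.52, 3.07 and 5.08 and 416, 346 and 339 of all probes passed. miR-669e-5p was the 1 member called lower in W4-08-PR and in C2C12-DF relative to C2C12-PR under each scaling and background correction of the spot intensities, with log2 ratios of -2.10 and -2.0 at an offset of 10. Under plain subtraction of the background it was -2.74 in both, a value set by the floor put in for the undetected readings. Apart from the last, these ratios are set against readings below background. The last is set against the lowest detected signal, used as the floor, so no size here is a measured fold. The count was 0 in both at a size limit of 2 and, by construction, with detection required on both arrays. The authors' processed values give no ratio for it, because it has a value on 1 array. Of 217 ratios of single members under an alternative, 22 moved by more than their technical SD, 13 of them at an offset of 10. None gained or lost a call, and the cause of the moves was not tested. That SD was taken at the main offset, so it does not measure the noise of values with a smaller offset or none. In the authors’ values the log2 ratio of miR-467g in W4-08-PR over C2C12-DF was 0.498 in place of -0.068, and the median of all probes with both values was 0.705. Scaling to the median of probes detected on all 3 arrays moved the median of all 1265 probes to -0.13 in W4-08-PR over C2C12-PR and to -0.18 in W4-08-PR over C2C12-DF, and the medians of the 71 were -0.18 and -0.21. The medians over all 71 were added after seeing the data. A median over members detected on both arrays could not be had for either comparison with C2C12-PR. One spot per probe and signals close to the blank spots limit every statement on single members.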

Other observations

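Most probes detected on W4-08-PR read a gene near one end of the cluster. Of the 72 miRNA genes in their order along Sfmbt2, the first 10 hold the genes read by 16 probes, of which 6 were detected on W4-08-PR, 0 on C2C12-DF and 2 on C2C12-PR. These 6 were the joint probe of miR-466m-5p and miR-669m-5p, miR-466m-3p, miR-466f-5p, miR-669f-3p, miR-669e-3p and miR-669l-3p. Of all miRNA probes 37.7%, 29.2% and 26.8% were detected on the 3 arrays, and 6.85%, 6.01% and 7.15% of the blank spots passed. At the common height of 11.9 units the joint probe and miR-466m-3p dropped out on W4-08-PR. At a limit of 3 SD only miR-669e-3p of the 6 was left there. The joint probe also reads the miR-669m genes at places 62 and 63 of the order, near the other end. Of the 45 probes for genes later in the order 1, 0 and 1 were detected, and of the 10 probes with no gene within Sfmbt2 1, 2 and 0. The median signal of the 16 probes was 4.96 units on W4-08-PR, 2.55 on C2C12-DF and -1.47 on C2C12-PR, and that of the 45 was 2.14, 0.26 and 0.92 units. All medians lie below the detection limit. The boundary after the tenth gene was set after the values were seen, and some probes read several gene copies (miR-466f and miR-669m among them), so no test was made.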
